A study of Saccharomyces cerevisiae with 6 samples.

Results

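The nuclear genes of the respiratory chain are the genes that encode mitochondrial electron carriers and the subunits of the ATP synthase, but are transcribed in the nucleus. The 41 genes described here were chosen by name as parts of the chain, with earlier results of these data known, and all 41 were found among the 5795 open reading frames (ORFs) of the deposited table for the budding yeast Saccharomyces cerevisiae. They comprise 4 genes of complex II, 3 NADH dehydrogenase genes, 9 genes of complex III, 2 cytochrome c genes, 9 genes of complex IV, and 14 genes of complex V, of which 6 belong to its F1 part and 8 to its stalk and membrane part. Strand-specific total RNA-Seq was performed in 3 groups of 2 biological replicates. The paper states an FY genetic background for its strains. Wild-type cells (strain 25T0b, MATα ura3 his3 trp1) were grown with glutamine (WT-Glu) or proline (WT-Pro) as nitrogen source, and dal80Δ cells (strain FV080, MATa, dal80::kanMX) were grown with proline (dal80Δ-Pro). Cells of all groups were harvested in mid-log phase from a minimal glucose medium that was supplemented with uracil, histidine and tryptophan. Glutamine is a preferred nitrogen source that represses genes for the use of poorer sources such as proline, and Dal80 is a GATA-family repressor of such genes. The wild-type and dal80Δ strains also differ in mating type, so the deletion and the strain background cannot be told apart.

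In respiration, electrons from NADH and succinate pass through ubiquinone, complex III, cytochrome c and complex IV to oxygen, and the proton gradient built on the way drives ATP synthesis by complex V. Budding yeast has no proton-pumping complex I and oxidises NADH with single-subunit dehydrogenases that face the matrix (Ndi1) or the intermembrane space (Nde1 and Nde2). In this yeast many nuclear genes of the chain are repressed by glucose, and the Hap2/3/4/5 complex, which binds CCAAT, and the heme-responsive factor Hap1 activate many of them.

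The promoters of the 41 genes were searched first, because the factors that act on these genes and on nitrogen genes read different short motifs. Over the 500 bases before the start codon and on both strands, CCAAT was found in 37 of the 41 promoters (90.2%), beside 62.9% of the promoters of 5770 nuclear ORFs. At least 2 copies were found in 26 of the 41 (63.4%), beside 26.5% of all promoters. The copy nearest the start codon lay 100 to 300 bases before it in 28 of the 41 promoters (68.3%) and in 26.9% of all promoters. No CCAAT was found in this window of NDE2, CYT1, CYC1 and COX4. For COX4 the 354 bases next to the start codon lie within the row of the gene, so its window reaches less far beyond the gene. The GATA motifs GATAAG or GATTAG were found in 16 of the 41 promoters (39.0%), close to the 35.6% of all promoters. The study also counted the shorter GATAA, which was not searched here, so these counts hold for GATAAG and GATTAG only. For Hap1 only exact matches to 1 motif (CGG, 3 bases, TA, 1 base, CGG) were counted. Such a match was found in QCR6 alone among the 41, with 2 copies, and in 20 promoters in all (0.347%). Sites that differ from this motif were not searched, so a promoter without a match may still hold a Hap1 site. None of the motifs searched contains another, and a match is a description of sequence, not of binding.

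Windows of 30 bases are shown for the genes whose values are given in most detail below, read from the R64 genome 5′ to 3′ on the strand of the gene, with the motif in capitals (ATTGG is CCAAT on the other strand). The windows of the isoform genes COX5A, COX5B, CYC7 and NDE1 and of the catalytic subunits ATP1 and ATP2 hold the CCAAT copy nearest the start codon. COX5B and CYC7 also have a window for their single match to GATAAG or GATTAG.
COX5A: tcctcgtttgtgATTGGccctacgttttgc
COX5B: ttaaacaatagaCCAATtatttcaatttaa
COX5B, GATA motif: tttgtattgttcGATAAGgcaacgaacgag
CYC7: aggaccttttgcCCAATgaccattccatat
CYC7, GATA motif: gaagctcgagaaGATTAGatcagaatagtt
NDE1: ttagagcaaataaaaaattaaCCAATaata
ATP1: atagctctttcaATTGGtcttattagattg
ATP2: gtctgttgttatCCAATttatactgaatct

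These windows lie at chr14:531568-531597 (plus strand, 140 bases before the start codon) for COX5A, at chr9:155138-155167 (plus, 67 bases) and chr9:154993-155022 (plus, 211 bases) for COX5B, at chr5:80413-80442 (minus, 448 bases) and chr5:80095-80124 (minus, 129 bases) for CYC7, at chr13:556476-556505 (minus, 4 bases) for NDE1, at chr2:36774-36803 (plus, 262 bases) for ATP1, and at chr10:647549-647578 (plus, 41 bases) for ATP2. The distance is from the motif to the start codon. CYC7 had its single CCAAT copy farther from the start codon than any other of the 37 genes, and NDE1 had its nearest copy closest.

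The 6 libraries held between 12304015 and 19968312 reads on ORFs. DAL80 had 16.0 and 17.7 scaled reads in WT-Glu, 3537 and 2729 in WT-Pro, and 6.15 and 2.75 in dal80Δ-Pro, so that almost none was left in the deletion libraries. The 4 α-cell genes checked (MF(ALPHA)1, MF(ALPHA)2, STE3 and SAG1) had between 3606 and 38242 scaled reads in the wild-type libraries and between 0.683 and 574 in dal80Δ-Pro. The 4 a-cell genes (MFA1, MFA2, STE2 and BAR1) had between 224 and 2034 scaled reads in dal80Δ-Pro, but also between 123 and 1131 in WT-Pro, beside 1.97 to 85.5 in WT-Glu. The a-cell genes thus moved with the nitrogen source in the strain labelled MATα, and their part in the results was not tested. In bulk RNA, less transcript per cell and fewer expressing cells cannot be told apart. The authors multiplied the reads of each library by 1 factor, and on that scale the median ORF changed by 0.04 on the log2 scale between WT-Pro and WT-Glu. With the total of ORF reads as the scale the same median was 0.96, so a change below that size has a direction only relative to the scale chosen. The replicates also differed together in these genes. Replicate 2 was the higher one for 38 of the 41 genes in WT-Glu, for 3 of 41 in WT-Pro and for 38 of 41 in dal80Δ-Pro, beside 2638, 2939 and 2992 of 5791 ORFs.

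Levels are given as densities, which are scaled reads per nucleotide of the ORF (tags/nt). The 41 genes were expressed above most ORFs in every library. Their median density was between 2.02 and 2.72 tags/nt, whereas the median ORF tested lay between 0.348 and 0.377 tags/nt, and 38 or 39 of the 41 exceeded the median ORF in each library. Together they took 0.537% to 0.785% of the ORF reads. ATP1 and ATP2 alone held 45.7% and 44.2% of the scaled reads of the 41 genes in WT-Glu, but 28.7% and 30.3% in WT-Pro and 29.2% and 27.3% in dal80Δ-Pro. At the low end, NDE2 and CYC7 stayed below the median ORF in all libraries but 1, the first WT-Pro library, where NDE2 was at percentile 56.2.

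**Figure D1:**
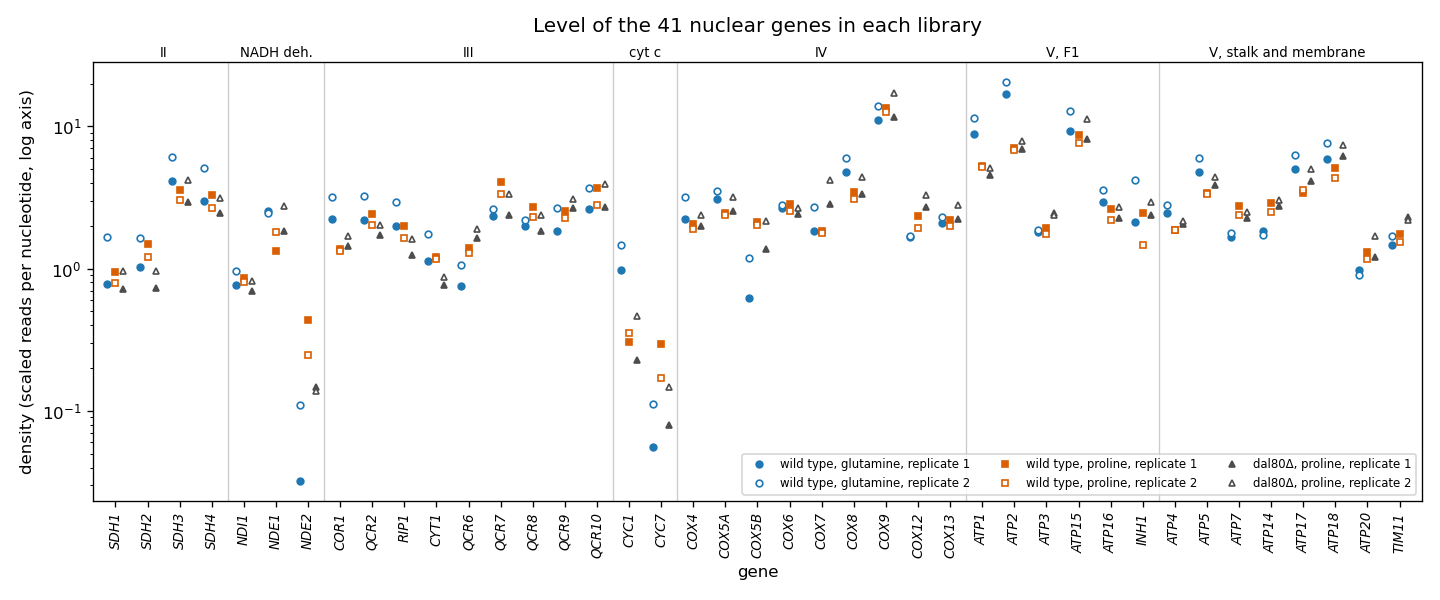
Density of each of the 41 genes (scaled reads per nucleotide of the ORF, log axis) in each of the 6 libraries, ordered by complex, with filled symbols for replicate 1 and open symbols for replicate 2. ATP2 is the highest point in WT-Glu at 16.9 and 20.4 tags/nt, and COX9 the highest in the proline groups, while NDE2, CYC7 and CYC1 are the lowest in the proline groups.

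In proline against glutamine, few of the 41 genes changed at least 2-fold. All 41 passed the filter on low counts and were tested with limma, and at an adjusted p of at most 0.01 with a 2-fold change 2 were called higher in WT-Pro (NDE2 and COX5B) and 2 lower (CYC1 and ATP2). Of the 5645 ORFs tested, 13.0% were called higher, 15.6% lower and 28.5% in either direction, so that the 4 of 41 (9.76%) lay below the background. At an adjusted p of at most 0.05 with no fold threshold, 7 of the 41 were higher and 12 lower, beside 31.9% and 32.3% of all ORFs. Those counts were 5 and 22 without WT-Glu replicate 1, 3 and 8 without WT-Pro replicate 1, 6 and 8 without WT-Pro replicate 2, and 7 and 8 without WT-Glu replicate 2. The median log2 fold change of the 41 genes was -0.27, beside 0.04 for all ORFs, and 23 of the 41 changes were below 0.5 in size. Without WT-Glu replicate 1 that median was -0.55, and without WT-Glu replicate 2 it was 0.01. The distance between the median of the 41 and that of all ORFs was -0.31. It was the same with factors of the authors, TMM factors and totals of ORF reads. That follows from the method, because a scaling shifts all ORFs by about the same amount. The distance was -0.58 without WT-Glu replicate 1 and -0.017 without WT-Glu replicate 2. On totals 11 of the 41 were called higher and 0 lower, a smaller share higher than among all 5645 ORFs, with 2661 higher and 189 lower. At the threshold without a fold limit, 28 were then higher and 2 lower, and 21 of the 41 had changed sign from lower to higher.

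**Figure D2:**
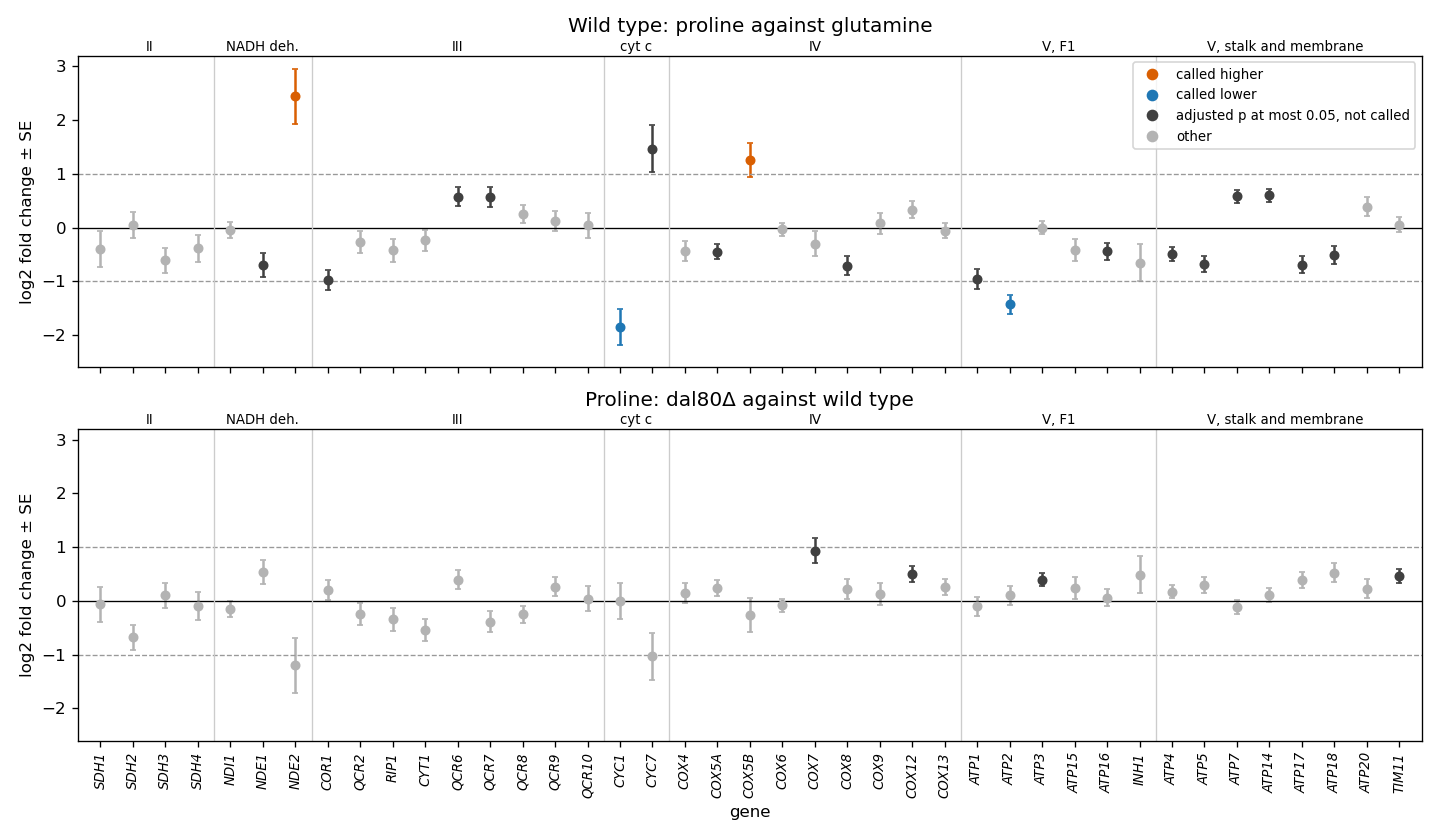
Fitted log2 fold change with its standard error for each of the 41 genes, ordered by complex, in WT-Pro against WT-Glu and in dal80Δ-Pro against WT-Pro. Called genes are coloured: NDE2 and COX5B as higher, and CYC1 and ATP2 as lower, in proline, and none in the deletion strain.

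Complex II oxidises succinate and passes the electrons to ubiquinone. None of its 4 genes passed either threshold in proline. SDH3, which encodes a membrane anchor subunit, had the largest difference, with 4.10 and 6.07 tags/nt in WT-Glu and 3.55 and 3.02 in WT-Pro. These groups did not overlap, but the change of -0.61 ± 0.23 (log2, SE) missed the threshold (limma adjusted p = 0.0511), and on totals of ORF reads it had the opposite sign (0.31). SDH2, the iron-sulfur subunit gene, had 1.03 and 1.63 tags/nt in WT-Glu and 1.50 and 1.20 in WT-Pro, with overlapping groups. SDH1 (flavoprotein subunit) and SDH4 (membrane anchor) had log2 changes of -0.40 and -0.38, with replicates that differed by more than that in WT-Glu.

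The 3 NADH dehydrogenase genes went different ways. NDE2 (YDL085W, chr4:303211-304848, plus strand) had 0.0324 and 0.110 tags/nt in WT-Glu and 0.439 and 0.247 in WT-Pro, which is 53 and 184 reads against 1048 and 553. Both WT-Pro libraries lay above both WT-Glu libraries, and the rise was 2.45 ± 0.51 on the log2 scale, or 5.45-fold (limma adjusted p = 0.0041). The size of the rise depended on the WT-Glu libraries and was 1.57 without replicate 1 and 3.32 without replicate 2. The call was lost without either WT-Pro library (adjusted p = 0.0373 and 0.0117) and without either dal80Δ-Pro library (both 0.0130), and over transcript rows, which include untranslated ends, the change was 1.00 (adjusted p = 0.0102). NDE1 (YMR145C, chr13:554793-556475, minus strand), the gene of the other outward-facing enzyme, had 2.54 and 2.45 tags/nt in WT-Glu and 1.33 and 1.80 in WT-Pro. It fell by 0.69 on the log2 scale (SE 0.22, limma adjusted p = 0.0277), though on totals of ORF reads its change was 0.23. NDI1, the gene of the inward-facing enzyme, stayed between 0.773 and 0.957 tags/nt in these 4 libraries, with a log2 change of -0.04 ± 0.15.

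In complex III, a pair of core proteins that belong together in the assembled complex had unlike changes. COR1 (YBL045C, chr2:134143-135516, minus strand) had 2.24 and 3.17 tags/nt in WT-Glu and 1.38 and 1.34 in WT-Pro. The fall of 0.97 on the log2 scale (SE 0.18, limma adjusted p = 0.0024) was 1.96-fold, just under the 2-fold threshold. Without WT-Glu replicate 1 it was 1.23 and passed that threshold, and on totals of ORF reads the change was -0.055 (adjusted p = 0.78). QCR2, the gene of the other core protein, had 2.19 and 3.25 tags/nt in WT-Glu and 2.44 and 2.02 in WT-Pro, with overlapping groups and a log2 change of -0.27, and the difference between these genes was not tested. The ratio of COR1 to QCR2 densities, which does not depend on the scale of a library, was 1.02 and 0.975 in WT-Glu, 0.564 and 0.663 in WT-Pro, and 0.841 and 0.830 in dal80Δ-Pro. Of the small subunit genes 2 rose, QCR6, which encodes the hinge protein, from 0.757 and 1.06 to 1.39 and 1.29 tags/nt, and QCR7 from 2.35 and 2.63 to 4.08 and 3.33 tags/nt. Their log2 changes were 0.58 ± 0.18 and 0.57 ± 0.19 (limma adjusted p = 0.0224 and 0.0308). The catalytic RIP1 (Rieske iron-sulfur protein) and CYT1 (cytochrome c1) had changes of -0.42 and -0.24, and QCR8, QCR9 and QCR10 of 0.25, 0.12 and 0.04, none past the threshold. The row of QCR9 is 51.4% intron by length, so its density is lower than that of its coding sequence would be.

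Cytochrome c carries electrons from complex III to complex IV, and its isoforms moved in opposite directions. CYC1 (iso-1, YJR048W, chr10:526335-526664, plus strand) had 0.979 and 1.46 tags/nt in WT-Glu and 0.305 and 0.355 in WT-Pro. It fell by 1.85 on the log2 scale (SE 0.33, 3.61-fold, limma adjusted p = 0.0019), and its rank among ORFs went from percentiles 73.9 and 79.1 to 42.1 and 47.7. Without WT-Pro replicate 1 or 2 the call was lost, with changes of -1.74 and -1.96. On totals of ORF reads the change was -0.94 (limma adjusted p = 0.0147), and CYC1 was not called. CYC7 (iso-2, YEL039C, chr5:79636-79977, minus strand), the isoform known for expression at low oxygen, had 0.0556 and 0.112 tags/nt in WT-Glu and 0.297 and 0.169 in WT-Pro. These values rest on 19 and 39 reads against 148 and 79. It rose by 1.47 ± 0.44 (limma adjusted p = 0.0195), a 2.77-fold change that in limma on all libraries passed only the threshold without a fold limit. CYC7 was called higher by DESeq2 (adjusted p = 0.0041), on totals of ORF reads (limma adjusted p = 0.00056) and without WT-Glu replicate 2 (0.0015). When 1 library was left out its change ranged from 0.98 to 1.96, with an adjusted p of up to 0.132. Summed over both genes, the density was 1.03 and 1.58 tags/nt in WT-Glu and 0.602 and 0.524 in WT-Pro.

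Complex IV reduces oxygen to water, and its subunit 5 exists in isoforms encoded by COX5A and COX5B, of which COX5B is known as the low-oxygen form. COX5B (YIL111W, chr9:155222-155765, plus strand) had 0.625 and 1.19 tags/nt in WT-Glu and 2.13 and 2.03 in WT-Pro. It rose by 1.27 ± 0.31 (2.41-fold, limma adjusted p = 0.0091). Leaving out any library but WT-Glu replicate 2 ended this call (adjusted p from 0.0123 to 0.0510), and without WT-Glu replicate 1 the rise was 0.80. COX5A (YNL052W, chr14:531725-532186, plus strand) had 3.10 and 3.51 tags/nt in WT-Glu and 2.46 and 2.38 in WT-Pro. It fell by 0.45 on the log2 scale (SE 0.15, limma adjusted p = 0.0279), with the opposite sign on totals of ORF reads (0.47).

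COX8 had the largest fall in complex IV, from 4.77 and 6.02 to 3.49 and 3.10 tags/nt. Its change was -0.70 ± 0.18 (limma adjusted p = 0.0097), and 0.21 on totals of ORF reads. The other 6 genes of the complex (COX4, COX6, COX7, COX9, COX12 and COX13) had changes between -0.43 and 0.34 that did not pass the threshold. COX9 was the most abundant transcript of the complex in all libraries, at 11.0 and 13.8 tags/nt in WT-Glu and 13.4 and 12.6 in WT-Pro. Its density was 4.11 to 6.45 times that of COX6 in the 6 libraries. The row of COX4 is 354 bases longer than its coding sequence, and reads on the coding part alone were not measured.

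In each of the 3 isoform pairs the gene with the lower level in glutamine gained share in proline. COX5B made up 16.8% and 25.3% of the summed density of its pair in WT-Glu, 46.4% and 46.0% in WT-Pro, and 34.9% and 40.5% in dal80Δ-Pro. The row of COX5B is 16.2% intron by length and that of COX5A has none, so the COX5B share is lower than one over coding sequence would be. CYC7 made up 5.37% and 7.12% in WT-Glu, 49.3% and 32.3% in WT-Pro, and 25.8% and 23.9% in dal80Δ-Pro. NDE2 made up 1.26% and 4.32% in WT-Glu, 24.8% and 12.1% in WT-Pro, and 7.47% and 4.78% in dal80Δ-Pro. In all 3 pairs both WT-Pro shares lay above both shares of either other group, and the dal80Δ-Pro shares lay above those of WT-Glu. Shares are independent of the scale of a library. They are given as a description, and the differences between groups were not tested.

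**Figure D3:**
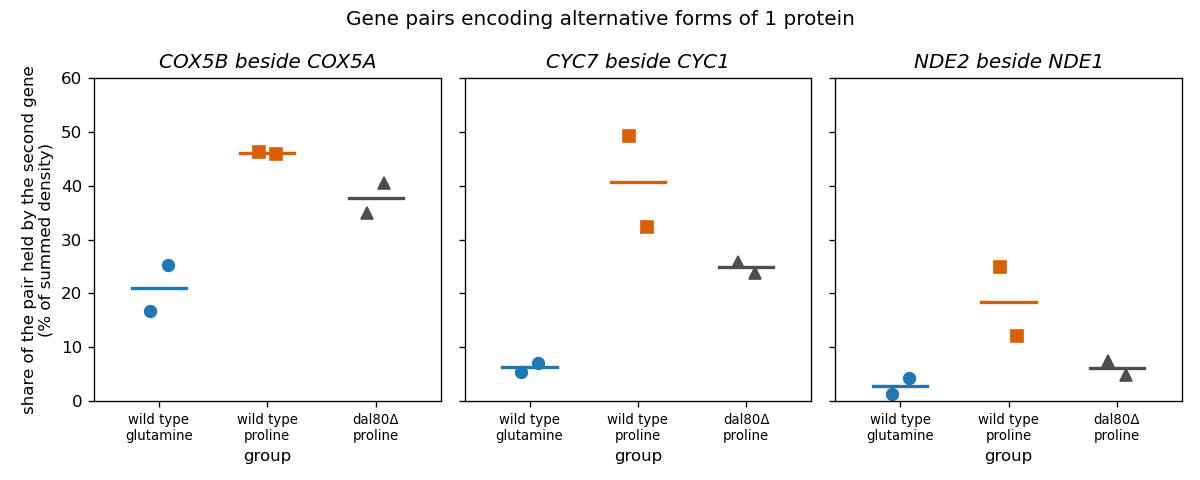
Share of the summed density of an isoform pair held by the second gene (%), for COX5B beside COX5A, CYC7 beside CYC1 and NDE2 beside NDE1, with 1 point per library in each of the 3 groups and a line at their mean. In each panel both WT-Pro points lie above those of WT-Glu and dal80Δ-Pro, as for COX5B with 46.4% and 46.0%.

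In complex V, the F1 part carries the catalytic sites on its α and β subunits. ATP2 (β subunit, YJR121W, chr10:647607-649142, plus strand) had 16.9 and 20.4 tags/nt in WT-Glu and 7.02 and 6.83 in WT-Pro. It fell by 1.42 on the log2 scale (SE 0.18, 2.68-fold, limma adjusted p = 0.00036) and kept the call without any 1 library, but on totals of ORF reads the change was -0.50 (adjusted p = 0.0156). ATP1 (α subunit, YBL099W, chr2:37053-38690, plus strand) had 8.86 and 11.5 tags/nt in WT-Glu and 5.23 and 5.17 in WT-Pro. It fell by 0.96 (SE 0.18, limma adjusted p = 0.0024), which is 1.94-fold, and on totals of ORF reads its change was -0.037 (adjusted p = 0.844).

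The other F1 genes changed less. ATP3, the γ subunit of the rotor, had 1.82 and 1.86 tags/nt in WT-Glu and 1.94 and 1.75 in WT-Pro, a log2 change of 0.00 ± 0.12. The ratio of ATP2 to ATP3 densities was therefore 9.27 and 11.0 in WT-Glu, 3.62 and 3.91 in WT-Pro, and 2.84 and 3.34 in dal80Δ-Pro. ATP16 (δ subunit) fell by 0.44 (limma adjusted p = 0.0443; 0.48 on totals of ORF reads), while ATP15 (ε subunit) and INH1, the gene of a protein that inhibits ATP hydrolysis, had changes of -0.42 and -0.65 that did not pass. INH1 replicates lay far apart, at 2.12 and 4.20 tags/nt in WT-Glu and 2.46 and 1.46 in WT-Pro. A transcript row of YJR120W spans the whole ATP2 ORF on the same strand, so the reads of ATP2 may include that transcript.

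In the stalk and membrane part, 4 genes fell and 2 rose at an adjusted p of at most 0.05, all by less than 2-fold. ATP17 fell from 5.03 and 6.30 to 3.40 and 3.58 tags/nt, a change of -0.69 ± 0.15 (limma adjusted p = 0.0056) that was 0.23 on totals of ORF reads. ATP5, which encodes the stalk subunit OSCP, fell by 0.68, ATP18 by 0.51 and ATP4, the b subunit, by 0.49, but on totals of ORF reads these had changes of 0.24, 0.41 and 0.43. ATP14 (h subunit of the stalk) rose from 1.83 and 1.73 to 2.89 and 2.50 tags/nt, or by 0.60 ± 0.13 (limma adjusted p = 0.0047). ATP7 (d subunit of the stalk) rose by 0.58 ± 0.13 (limma adjusted p = 0.0049). ATP20 and TIM11, whose products (g and e) help ATP synthase form dimers, had changes of 0.39 and 0.06.

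In dal80Δ-Pro against WT-Pro, none of the 41 genes was called in either direction by limma at an adjusted p of at most 0.01 and 2-fold, beside 3.60% of all ORFs called higher, 4.43% lower and 8.02% in either direction. edgeR and DESeq2 on the recovered reads also called 0 of 41. An unadjusted limma p under 0.05 was found for 11 of the 41, 7 of them higher and 4 lower. That is a smaller share than the 2428 of 5645 ORFs, of which 1311 were higher and 1117 lower. At an adjusted p of at most 0.05 with no fold threshold 4 were higher (COX7, COX12, ATP3 and TIM11) and 0 lower, beside 16.0% and 14.4% of all ORFs. None of the 4 passed without either WT-Pro library or without dal80Δ-Pro replicate 2, and 1 gene passed without dal80Δ-Pro replicate 1. On totals of ORF reads 1 was higher and 7 were lower. The median log2 change was 0.10, beside 0.05 for all ORFs, and 34 of the 41 changes were below 0.5 in size. Without dal80Δ-Pro replicate 1 that median was 0.31, and without replicate 2 it was -0.03.

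COX7 (YMR256C, chr13:778945-779127, minus strand), a small complex IV subunit gene, had the largest rise. Its densities were 1.85 and 1.77 tags/nt in WT-Pro and 2.86 and 4.20 in dal80Δ-Pro. The change was 0.93 ± 0.23 (1.91-fold, limma adjusted p = 0.0213), and without dal80Δ-Pro replicate 2 it was 0.66 with an adjusted p of 0.143. COX12 had 2.35 and 1.94 tags/nt in WT-Pro and 2.72 and 3.32 in dal80Δ-Pro, a rise of 0.49 ± 0.15 (limma adjusted p = 0.0425). ATP3 rose from 1.94 and 1.75 to 2.45 and 2.38 tags/nt, by 0.39 ± 0.12 (limma adjusted p = 0.0436). TIM11 rose from 1.74 and 1.54 to 2.32 and 2.21 tags/nt, by 0.47 ± 0.13 (limma adjusted p = 0.0349).

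The isoform genes that were high in WT-Pro were lower in dal80Δ-Pro without passing the test. NDE2 had 0.148 and 0.138 tags/nt in dal80Δ-Pro, below the 0.439 and 0.247 of WT-Pro, and a log2 change of -1.20 ± 0.51 (limma adjusted p = 0.115). It was called lower when only the 2 proline groups were fitted (limma adjusted p = 0.0019) and without WT-Glu replicate 1 or 2. In these fits the difference between the WT-Glu libraries does not enter the spread. When 1 library was left out, the change of NDE2 ranged from -1.61 to -0.79. CYC7 had 0.0799 and 0.147 tags/nt in dal80Δ-Pro, also below WT-Pro, and a change of -1.03 ± 0.44 (limma adjusted p = 0.113). COX5B had 1.37 and 2.18 tags/nt in dal80Δ-Pro, which overlapped with WT-Pro, and a change of -0.27 ± 0.31. Of their partners, NDE1 had 1.83 and 2.75 tags/nt (change 0.54 ± 0.22), COX5A 2.55 and 3.19 (0.24 ± 0.15) and CYC1 0.230 and 0.467 (-0.01 ± 0.33).

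SDH2, SDH3, CYT1, QCR6, INH1, ATP1, ATP18 and ATP7 had the largest positive or the largest negative difference of their complex or part, which for ATP1 and ATP7 was small (-0.10 and -0.12). SDH2 had 0.729 and 0.957 tags/nt in dal80Δ-Pro, below both WT-Pro libraries, with a change of -0.68 ± 0.24 (limma adjusted p = 0.0672). SDH3 had 2.95 and 4.17 tags/nt, which overlapped with WT-Pro, with a change of 0.10 ± 0.23 that was -0.16 on totals of ORF reads. CYT1 had 0.762 and 0.874 tags/nt, again below WT-Pro at 1.21 and 1.17, with a change of -0.54 ± 0.20 (limma adjusted p = 0.0815). QCR6 had 1.63 and 1.90 tags/nt, above WT-Pro, with a change of 0.39 ± 0.18 (limma adjusted p = 0.13). ATP18 had 6.15 and 7.45 tags/nt, above WT-Pro at 5.08 and 4.35, with a change of 0.53 ± 0.17 (limma adjusted p = 0.0535). INH1 had 2.40 and 2.95 tags/nt and ATP7 2.26 and 2.48, both overlapping with WT-Pro, and ATP1 4.57 and 5.14, just below it at 5.23 and 5.17. ATP2, at 6.95 and 7.94 tags/nt, overlapped with WT-Pro and had a change of 0.10 ± 0.18.

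Other genes tied to the chain were counted from 12 lists of 120 genes, of which 119 were tested. In proline 18 were called higher and 13 lower, 26.1% in all beside 28.5% of all ORFs, and their median was 0.27. Hap2/3/4/5 and Hap1 activate genes of the chain, and HAP4, which encodes the activation subunit, had 0.170 and 0.126 tags/nt in WT-Glu and 0.363 and 0.666 in WT-Pro. It rose by 1.75 ± 0.27 (limma adjusted p = 0.0010). HAP2, HAP5, HAP1 and HAP3 rose by 1.00, 0.85, 0.70 and 0.62 with limma adjusted p between 0.0019 and 0.0182, all under the 2-fold threshold. These are RNA levels, and whether the factors were active was not tested.

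The mitochondrially encoded subunits had 2 of 7 called higher, OLI1 (1.62) and COX1 (1.18), and a median of 0.69, although the row of COX1 overlaps ORFs inside its introns. The call of COX1 was lost without any 1 library except WT-Glu replicate 1 (adjusted p from 0.0112 to 0.0436). Mitochondrially encoded ORFs held 1.59% and 1.13% of ORF reads in WT-Glu, 6.19% and 5.24% in WT-Pro, and 4.40% and 3.26% in dal80Δ-Pro. The rows of COX1 and COB share bases with other ORF rows on the same strand, so these shares may count a read repeatedly. Of 9 further nuclear subunit and associated genes 4 were called higher and 0 lower, led by COX26 (3.66), which encodes a small complex IV protein, and by SHH3 (2.95) and SHH4 (2.28), homologues of the complex II anchor genes. COX26 had 0.0896 and 0.254 tags/nt in WT-Glu and 2.01 and 1.93 in WT-Pro. The 62 genes for expression and assembly of complexes II to V included 9 called higher and 3 lower, beside 13.0% and 15.6% of all ORFs. On totals of ORF reads 39 were called higher and 0 lower, beside 2661 and 189 of 5645 ORFs.

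Genes of cofactor synthesis were called only lower in proline on the scale of the authors, but not on totals of ORF reads. Of 8 heme synthesis genes 4 were called lower and 0 higher, with a median of -0.78, although on totals 3 were called lower and 2 higher. HEM15, the ferrochelatase gene that completes heme, had 3.28 and 4.36 tags/nt in WT-Glu and 0.587 and 0.655 in WT-Pro, a fall of 2.61 (SE 0.22, limma adjusted p = 6.7e-05). HEM12 and HEM13, for earlier steps, fell by 2.34 and 2.20. Of 10 ubiquinone synthesis genes 1 was called lower, COQ2, and none higher, with a median of -0.35. On totals 2 were called higher and 0 lower, with a median of 0.57, and the change of COQ2 was -0.60 (adjusted p = 0.0117). Of 7 genes listed as other electron donors 1 was called higher and 2 lower. Those called lower were URA1 and ADH3, whose products do not pass electrons directly to the chain. GUT2, for mitochondrial glycerol phosphate dehydrogenase, rose by 1.56, a call lost without either WT-Pro library (adjusted p = 0.0183 and 0.0126), while URA1, whose product acts in pyrimidine synthesis and is cytosolic in budding yeast, fell by 3.74. Of 8 tested genes listed as hypoxic or heme-repressed 1 was called higher and 3 lower. Those called lower were HEM13, which is also in the heme list, HMG2 and CPR1, a cyclophilin gene. As neither CPR1 nor the gene called higher is itself a hypoxic gene, the counts do not describe hypoxic genes as a group. The one called higher was ROX1, which encodes a repressor of hypoxic genes, and which rose by 2.39 ± 0.14 (limma adjusted p = 2.1e-05) from 0.172 and 0.195 to 0.969 and 0.959 tags/nt.

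In dal80Δ-Pro 4 of the 119 were called, 2 higher and 2 lower, beside 3.60% and 4.43% of all ORFs. RCF2, for a protein that binds complexes III and IV, rose by 1.03, and NCA3, which acts in the expression of mitochondrially encoded ATP synthase subunits, by 2.18, while PIC2, a copper and phosphate carrier gene, fell by 1.82 and ROX1 by 1.31. RCF2 was not called with TMM factors (0.98), on totals of ORF reads (0.77), without WT-Pro replicate 1 (0.87), or without dal80Δ-Pro replicate 1 (0.97) or 2 (adjusted p = 0.0205). NCA3 lost its call without any 1 of the 4 proline libraries (adjusted p from 0.0122 to 0.0651), and with the replicate block (0.0116). PIC2 lost it without WT-Pro replicate 1 (0.0146) or dal80Δ-Pro replicate 1 (0.0193). ROX1 had 0.432 and 0.349 tags/nt in dal80Δ-Pro, between the levels of WT-Glu and WT-Pro. OLI1 fell by 0.84 (limma adjusted p = 0.0038), under the 2-fold threshold, and HAP4 had a change of -0.15 ± 0.27.

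**Figure D4:**
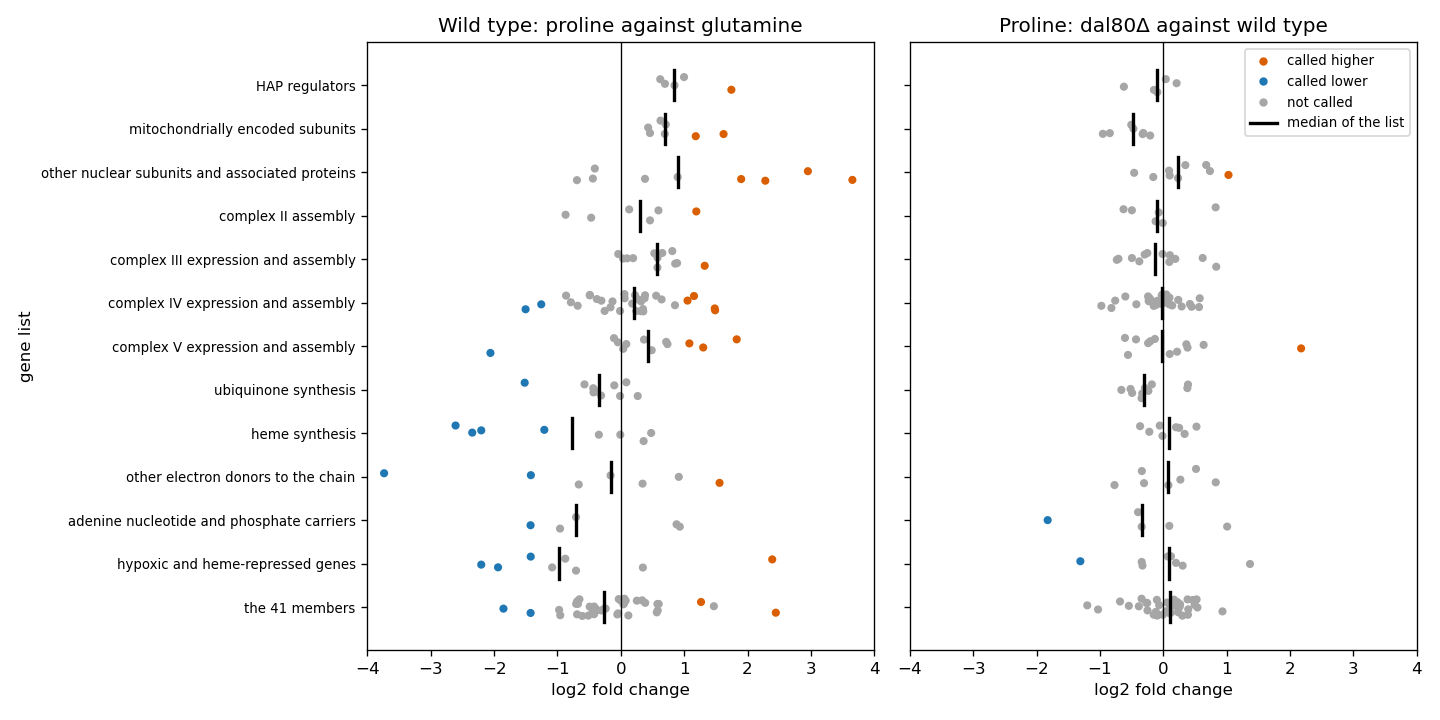
Log2 fold change of the 41 genes and of each gene of 12 related lists, in WT-Pro against WT-Glu and in dal80Δ-Pro against WT-Pro, with 1 point per gene and a bar at the median of a list. In proline the heme synthesis list has its median at -0.78, and the list of HAP regulators at 0.85.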

How the data were processed

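Libraries were made from total RNA depleted of ribosomal RNA with a stranded kit and sequenced as read pairs. Per the labels, the authors aligned reads with TopHat to genome build R64, and per the methods they kept uniquely mapped reads and called changes with DESeq at 2-fold and P ≤ 0.01. The deposited values are read counts per feature in WT-Glu replicate 1, and in the other 5 libraries a signal, reads multiplied by 1 factor per library. The authors also deposited densities, a signal of scaled reads per nucleotide, and group means that were not used here. Dividing by the factor gave whole reads for 100% of values (tolerance 1e-06). Of 11987 features, the 5795 ORF rows were taken, and 4 ORFs of the plasmid were left out.

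The test was limma 3.58.1 in R 4.3.3 on log2(scaled reads + 1) with a mean-variance trend, over 6 libraries in 1 model with group as the term, after a filter on low counts (5645 ORFs). ORFs were called where p, adjusted over all ORFs by Benjamini-Hochberg, was 0.01 or less and the log2 change was 1 or more in size. A second rule used an adjusted p of at most 0.05 with no fold threshold. Fold changes are on the log2(value + 1) scale, which understates those of low genes. The alternatives were edgeR 4.0.16 and DESeq2 1.42.0 on the recovered reads, TMM factors and ORF totals as scale, a pseudocount of 10, no filter, fits of only the groups compared, transcript rows, a replicate block and leaving out each library. The model was tested on simulated data.

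The members and the related lists were chosen with earlier results of these data known. Per-library values were given for members called in either comparison, for the largest rise and fall of each complex, and for the isoform pairs, with other members as counts or ranges. Up to 3 called genes per direction of a related list, and HAP1 to HAP5, were named. Motifs were counted in the R64 genome sequence and RefSeq annotation, in which 40 of the 41 members had the start and end of the table.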

Additional observations from a re-analysis of the deposited data

How the results depend on the processing

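On totals of ORF reads, where the median ORF moved by 0.96 in proline, 11 members were called higher and 0 lower with a median of 0.65, and 67 related genes were called higher and 5 lower. All ORFs then split into 2661 higher and 189 lower, and with TMM factors into 912 and 756. On totals 21 of the 41 members changed sign in proline and 13 in dal80Δ-Pro. They included in proline SDH3 (0.31), NDE1 (0.23), COX5A (0.47), COX8 (0.21) and ATP17 (0.23), and in dal80Δ-Pro SDH3 (-0.16) and COX5A (-0.022), as did the regulators HAP1 (-0.22) and HAP3 (-0.046). The members' median in dal80Δ-Pro was then -0.15. With TMM factors HAP1 was at -0.0058 in dal80Δ-Pro. In proline, members called higher were 0 with only the 2 groups compared, 1 over transcript rows and 0 to 3 when 1 library was left out, and members called lower were 1 to 5. At an adjusted p of at most 0.05 they were 7 and 12, and 4 were higher in dal80Δ-Pro. The median ranged from -0.55 to 0.013 in proline and from -0.025 to 0.31 in dal80Δ-Pro, where 1 member was called lower with only the 2 groups compared and 0 to 1 when 1 library was left out. Of related genes in dal80Δ-Pro, the number called higher was 1 with TMM factors, 1 on totals, 4 with a pseudocount of 10, 4 with only the 2 groups compared, 4 with edgeR, 4 with DESeq2, and 0 to 4 without 1 library, and the number called lower was 5 on totals and 1 to 2 without 1 library. In proline ATP3 was at -0.00013 over transcript rows, and CYC1 in dal80Δ-Pro at 0.092 with edgeR and 0.084 with DESeq2. When 1 library was left out, SDH2 ranged from -0.28 to 0.38 and ATP3 from -0.077 to 0.078 in proline, and in dal80Δ-Pro SDH3 from -0.15 to 0.35, CYC1 from -0.51 to 0.50, COX5B from -0.60 to 0.066, HAP1 from -0.069 to 0.15 and HAP4 from -0.58 to 0.29. Of the settings tried for single genes, 997 kept direction and side of the threshold, 48 lost the call, 25 gained it and 25 changed sign. The cause was not tested, beyond the smaller number of libraries in the fits that leave some out.

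Same-numbered libraries did not deviate alike in all pairs of groups. Whether they were prepared together is not known, and these values cannot decide it. The deviations of same-numbered libraries from their group means correlated at -0.24 between WT-Glu and WT-Pro, 0.18 between WT-Glu and dal80Δ-Pro and 0.03 between WT-Pro and dal80Δ-Pro. With the replicate block 1 member (COX5B) was called higher and 2 lower in proline. With crossed numbers, chosen after seeing the data, 3 were called higher and 2 lower, and 723 and 880 of all ORFs.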
